A study of Caenorhabditis elegans with 16 samples.

Results

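The transcriptome of whole *Caenorhabditis elegans* held 73 histone genes among the 19750 genes measured. They were chosen by name: every gene called *his-* followed by a number, and *hil-1* to *hil-8*. There were 64 core histone genes and 9 linker histone genes (class H1: *his-24* and *hil-1* to *hil-8*). The core genes comprised 15 of class H2A, 14 of H2B, 14 of H3, 15 of H4 and 5 of the H3.3 type, and *his-73*, to which the table's description gave no class.

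Core histones form the protein spool around which DNA is wound into nucleosomes, and linker histones bind the DNA where it enters and leaves that spool. Most core histone genes of animals are replicative, that is, used when chromosomes are copied, and their mRNAs end in a hairpin in place of a poly(A) tail. The H3.3 histones are deposited outside replication as well. In an adult hermaphrodite most body cells no longer divide, whereas the germ line keeps dividing and loads histone products into oocytes for the embryo.

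All worms were of the N2 strain and were fed *Escherichia coli* HT115 from the first larval stage, and about 500 worms were collected for each sample on day 1 of adulthood. There were 4 groups of 4 samples. EV worms ate empty-vector bacteria and *ech-6* RNAi worms ate bacteria silencing *ech-6*, each with water as the vehicle or with P-80. P-80 stands for polysorbate 80, an oleic acid ester used as a detergent, and *ech-6* encodes an enoyl-CoA hydratase. *ech-6* was silenced by feeding 1 RNAi clone to whole animals, so the silenced tissue was not defined. The labels do not say whether the 4 samples of a group came from separate cultures, so the p-values measure the spread between these samples.

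Ribosomal RNA was depleted and no poly(A) selection was used, so hairpin-ended histone mRNAs stayed in the libraries. Between 15306307 and 28129104 reads per sample fell on genes, and all replicate pairs differed by more than sampling noise. The library labelled *ech-6* RNAi + vehicle replicate 3 went against its label: *ech-6* stood at 7.48 on the log2 scale of CPM (reads scaled to the same library total) there, between 6.05 and 6.17 in the other 3 samples of its group and between 7.36 and 7.50 in EV + vehicle. The mean difference of *ech-6* was -0.96 with vehicle (exact permutation test, two-sided p = 0.114), or -1.30 without that library (exact permutation test, p = 0.0571, the smallest that 3 against 4 allows), and -1.61 with P-80 (exact permutation test, two-sided p = 0.0286, the smallest that 4 against 4 allows). EV + P-80 replicates 3 and 4 and *ech-6* RNAi + P-80 replicate 3 lay farthest from their group means over all genes (root mean square 0.232, 0.285 and 0.261 on the log2 scale, against 0.157 to 0.209 in the other 13 samples). The counts of called histone genes are also given without each of these 4 libraries in the comparisons it belongs to, where they change.

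Germ cell transcripts were present. All 18 germline, 18 oocyte and 21 sperm genes of the marker lists were measured. Of 15 early embryo genes 5 were in the table, summing to between 2.97 and 6.10 CPM in every sample, and *end-3*, *med-2* and *sdz-38* among them were at 0 reads in at least 1 sample. In RNA of whole animals, fewer cells of a type and less RNA per cell cannot be told apart.

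The core histone genes are copies of one another, which limits what a count for a single gene means. All 15 H4 genes and all 14 H3 genes shared 1 protein each. Of the 58 replicative core genes, 54 were annotated as 1 exon whose length was a multiple of 3, which is a coding length without untranslated regions. The counter assigned only reads with a single place in the genome, so each value counts the reads that could be told from those of the other copies. A later annotation of the same genome joins 30 of the 73 genes under 12 symbols, for example *his-12* with *his-43*. Of the 73 genes, 53 averaged at least 1 CPM, 20 averaged less, and 12 had 0 reads in at least 1 sample. *his-73* and *his-41* each overlap another gene on the same strand, and their counts are uncertain for that reason.

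A few H4, H3, H2A and H2B copies on chromosome IV gave most of the core histone signal. In EV + vehicle, with levels given per kilobase of annotated exon, *his-64* (H4) stood at 1572 ± 70.6 CPM per kb (SD, n = 4) and *his-60* (H4) at 1328 ± 30.3. The ranges of these 2 genes did not overlap, nor did those of the next 3. These were *his-59*, the highest H3 gene (654 ± 33.7 CPM per kb), *his-62*, the highest H2B gene (557 ± 27.2), and *his-63* (H3, 416 ± 22.9). *his-48* (H2B, 309 ± 14.3 CPM per kb) and *his-61*, the highest H2A gene (304 ± 30.2), followed with overlapping ranges. All 7 genes lie on chromosome IV. Uniquely placed reads of *his-64* and *his-60* made up 37.9% of the summed core CPM in EV + vehicle, and those of the 10 highest genes 83.4%. Per kb, the highest linker gene was *hil-5* (128 ± 2.82 CPM per kb), then *hil-4* (86.8 ± 3.35), *hil-2* (73.9 ± 4.09), *his-24* (56.4 ± 9.44) and *hil-3* (31.3 ± 5.57). No neighbours among these 5 linker genes overlapped in their ranges: *hil-4* did not go below 82.1, *hil-2* ran from 67.99 to 76.8, *his-24* from 43.9 to 66.7, and *hil-3* reached 36.5 CPM per kb.

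**Figure D1:**
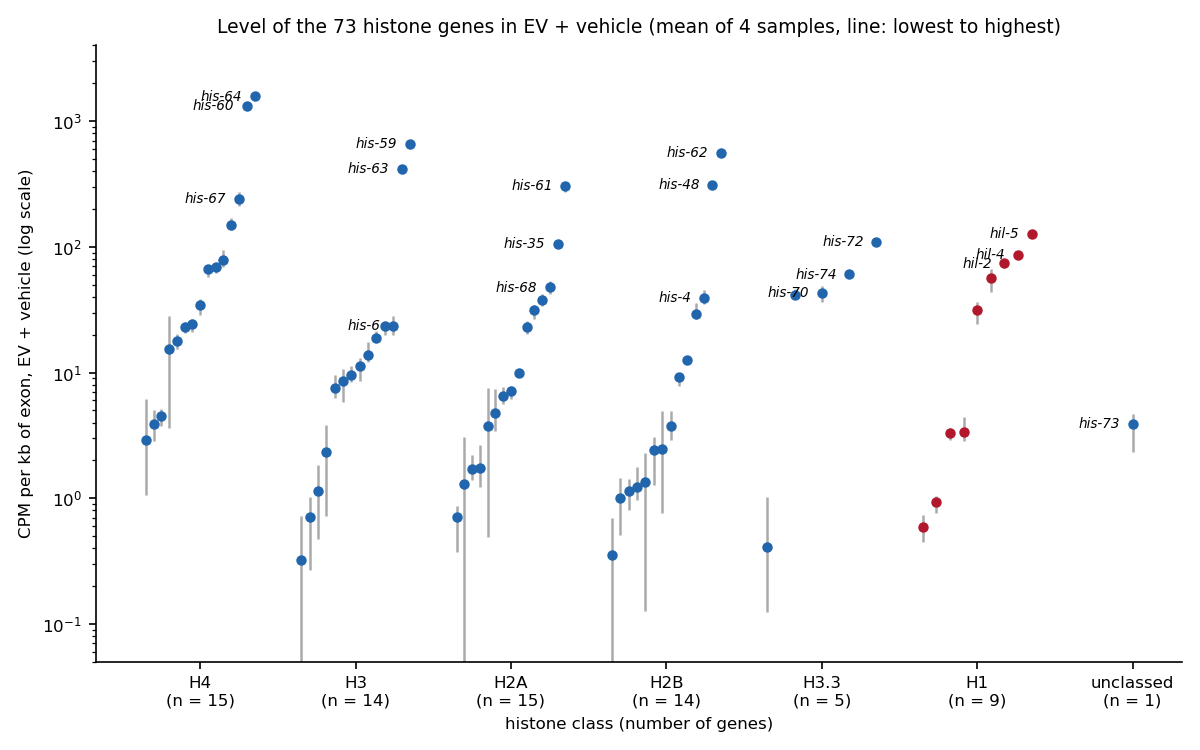
Each point is the mean level of 1 of the 73 histone genes in EV + vehicle, in CPM per kilobase of exon on a log axis, by class, and each line runs from the lowest to the highest of the 4 samples (lines that reach 0 end at the axis). The H4 genes *his-64* and *his-60* stand highest at 1572 and 1328 CPM per kb, and the linker genes (red) reach 128 CPM per kb at *hil-5*.

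Of the 7 linker histone genes averaging at least 1 CPM, 3 fell, 1 rose and 3 did not pass the test with P-80 in EV worms. Summed over the 9 linker genes the EV + vehicle samples averaged 338 ± 17.6 CPM (SD, n = 4) and those with P-80 averaged 291 ± 17.5 CPM, and the groups did not overlap (313.9 to 356.2 against 270.6 to 308.1). At an adjusted p under 0.05 (limma, Benjamini-Hochberg over 19750 genes) the test called 5 of the 9 linker genes, 1 higher and 4 lower. Over all genes 16.1% were called, 6.97% higher and 9.14% lower. The median log2 fold change of the 9 linker genes was -0.42, against -0.0025 over all genes tested. It was -0.07 without EV + P-80 replicate 1 and -0.07 over the linker genes averaging at least 1 CPM, so the median does not describe the linker genes as a group.

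*his-24* (WBGene00001898; WBcel235, X:14490094-14491119, 2 exons) encodes the H1.1 linker histone, which has been tied to gene silencing in the germ line. It stood at 61.6, 40.5, 52.2 and 53.8 CPM in EV + vehicle replicates 1 to 4 and at 28.3, 28.04, 40.45 and 27.2 CPM in EV + P-80. The EV + P-80 samples all lay below the EV + vehicle samples, though only just for replicate 3 of EV + P-80 against the lowest control (40.45 against 40.47 CPM). The log2 fold change was -0.75 (SE 0.14, adjusted p = 0.00138 from limma), or 59.4% of the control level. In the fits over all alternatives and with each sample left out in turn, it ran from -0.89 to -0.67 and kept its call.

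*hil-3* (WBGene00001854; X:8159169-8160084) stood at 31.5, 21.04, 25.04 and 30.1 CPM in EV + vehicle and at 14.5, 13.5, 21.04 and 13.3 CPM in EV + P-80. Here too replicate 3 was the highest of the treated samples and it met the lowest control at 21.04 CPM. The log2 fold change was -0.80 (SE 0.18, adjusted p = 0.00556 from limma). *hil-2* (WBGene00001853; IV:6294240-6295217) fell from 58.04, 51.4, 56.03 and 57.8 CPM to 38.1, 39.6, 50.2 and 40.2 CPM, a log2 fold change of -0.42 (SE 0.08, adjusted p = 0.00194). Both genes kept their calls under every alternative and with any 1 sample left out.

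*hil-1* (WBGene00001852; V:14949777-14952799, 5 exons) went the other way, from 2.61, 2.95, 4.03 and 2.63 CPM to 4.77, 4.81, 4.12 and 5.03 CPM. It is a low gene, with 40 to 127 reads in the 16 samples, and its groups were set apart by 4.03 against 4.12 CPM. Its log2 fold change was 0.64 (SE 0.15, adjusted p = 0.00571 from limma), and the call held under every alternative and every left-out sample. *hil-7* (IV:6646312-6646972) was at 0.586, 0.523, 0.440 and 0.597 CPM in EV + vehicle and at 0, 0.132, 0.310 and 0.107 CPM in EV + P-80. These values rest on 0 to 12 reads, so its fitted log2 fold change of -2.58 depends on the constant added before the log. Its adjusted p was 0.0181, and it was not called without EV + vehicle replicate 1 or 4, or with only the 2 groups fitted (up to 0.0601).

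The 3 remaining linker genes with at least 1 CPM did not pass the test. *hil-4* averaged 82.9 ± 3.20 CPM with vehicle and 83.0 ± 5.90 CPM with P-80 (SD, n = 4), and the 95% confidence interval of its log2 fold change ran from -0.11 to 0.11. For *hil-5* (111 ± 2.44 and 109 ± 8.51 CPM) it ran from -0.15 to 0.10, and for *hil-8* (5.68 ± 0.553 and 5.43 ± 0.778 CPM) from -0.34 to 0.20. *hil-6*, with 0 to 13 reads per sample, gave too few reads for a statement (interval -2.59 to 1.14). The linker genes with the highest levels, *hil-5* and *hil-4*, were thus among those that did not pass.

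**Figure D2:**
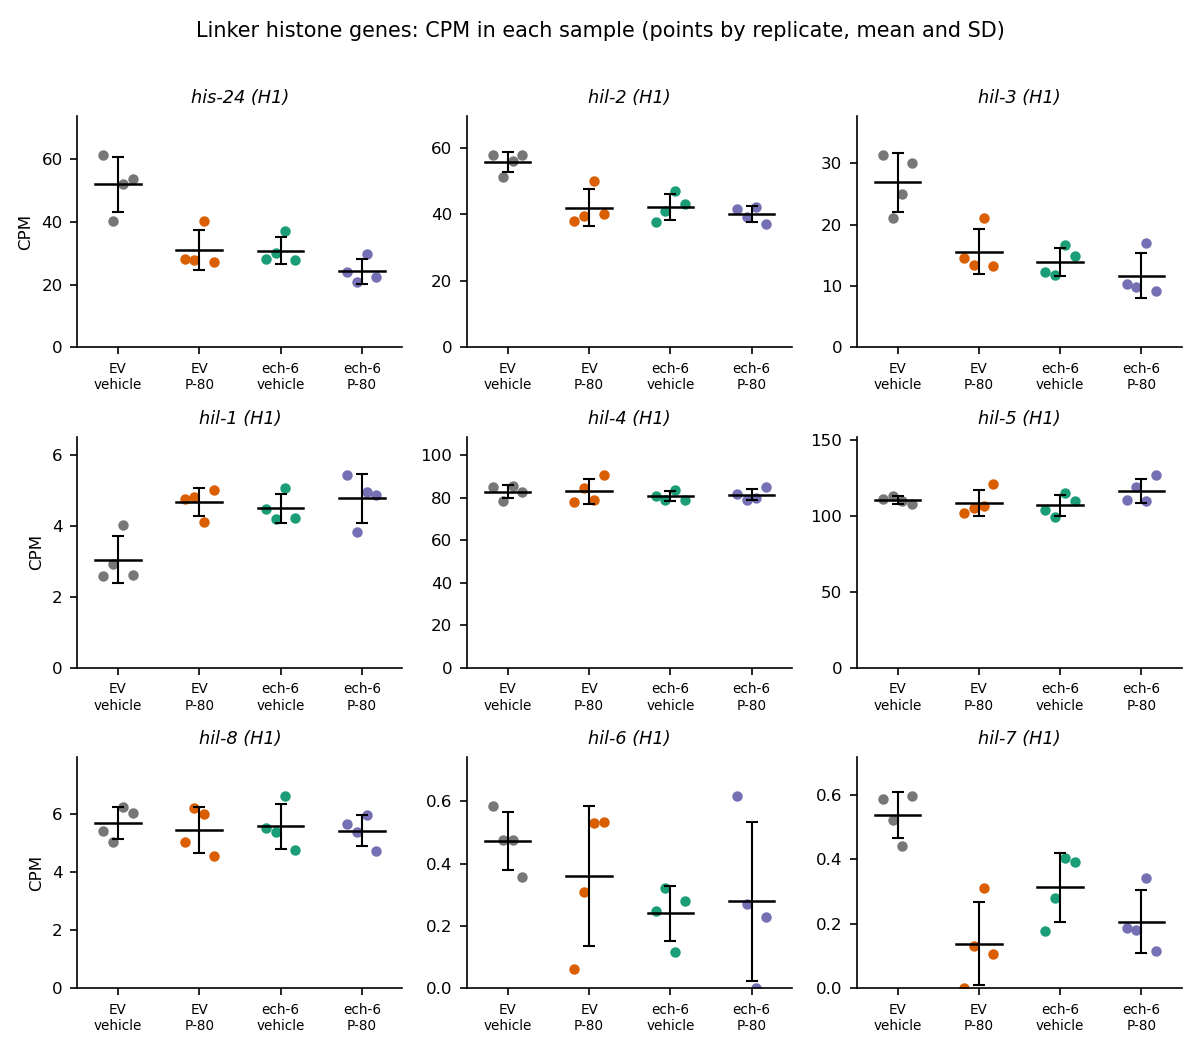
CPM of the 9 linker histone genes in each sample, by group, with 1 point per replicate and the mean and SD of 4 samples. *his-24*, *hil-2* and *hil-3* are lower in the 3 other groups than in EV + vehicle, *hil-1* is higher, and *hil-4*, *hil-5* and *hil-8* overlap in all 4 groups.

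Of the 64 core histone genes, 10 fell with P-80 in EV worms (15.6%, against 9.14% of all genes). Only 5 rose (7.81%), a share near the 6.97% of all genes. In either direction 23.4% of the core genes were called, against 16.1% of all genes. All 73 histone genes together gave 6 higher and 14 lower calls, or 27.4% called. Values below 0 were found for 42 of them, against 50.4% of all genes, and 31 of them had an unadjusted p under 0.05 (28.5% of all genes). In 22 of the 73 genes (30.1%) the groups did not overlap, against 19% of all genes. The summed core level averaged 2389 ± 76.9 CPM (SD, n = 4) without P-80 and 2576 ± 181 CPM with it, and the groups overlapped (2283 to 2465 against 2456 to 2843). The median log2 fold change of the core genes was -0.06, and it was 0.03 with each sample centred on its median and 0.04 with quantile normalization. It was 0.05 over the core genes averaging at least 1 CPM, and -0.10 without EV + vehicle replicate 3 or EV + P-80 replicate 3, so its sign depended on the scaling and on the filter. The same centring gave 10 higher and 14 lower histone calls. Among all genes it called 2361 higher and 1361 lower, against 1377 and 1805 without centring.

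All but 1 of the 10 core genes that fell lie on chromosome V. *his-1* to *his-4* lie together at V:16040144-16042831 and *his-5* to *his-8* at V:8532715-8535525. Each block holds 1 copy of H2A, H2B, H3 and H4, and 6 of these 8 genes fell. *his-1* (H4) went from 22.4, 17.96, 21.4 and 21.6 CPM in EV + vehicle to 15.8, 15.3, 14.4 and 15.8 CPM in EV + P-80, with no overlap (log2 fold change -0.44, SE 0.09, adjusted p = 0.00306 from limma). *his-5* (H4) went from 23.1, 19.1, 23.2 and 20.4 CPM to 15.1, 16.9, 15.7 and 12.6 CPM (-0.51, SE 0.11, adjusted p = 0.00371).

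The other histone classes of the same blocks moved with the H4 genes. *his-4* (H2B) went from 16.7, 13.1, 14.96 and 13.3 CPM to 10.3, 10.8, 12.1 and 10.3 CPM (log2 fold change -0.41, adjusted p = 0.00268 from limma). *his-6* (H3) went from 11.7, 8.12, 9.64 and 9.01 CPM to 6.49, 6.71, 7.44 and 6.80 CPM (log2 fold change -0.47, adjusted p = 0.00429). *his-7* (H2A) fell by 0.70 on the log2 scale (adjusted p = 0.0073), from 8.81 ± 0.861 to 5.52 ± 1.43 CPM (SD, n = 4). In these 3 genes no EV + P-80 sample reached the lowest EV + vehicle sample. *his-3* (H2A) fell by 0.38 with overlapping groups (adjusted p = 0.0155), and lost its call without EV + vehicle replicate 3 or EV + P-80 replicate 4 (up to 0.0666). *his-2* (H3) had -0.58 without passing (adjusted p = 0.0543), and *his-8* (H2B, 1.39 ± 0.370 and 1.08 ± 0.183 CPM) had -0.35 (adjusted p = 0.554).

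The summed level of *his-1* to *his-8* stood at 107, 85.4, 102 and 92.9 CPM in EV + vehicle and at 67.9, 70.4, 76.2 and 64.5 CPM in EV + P-80. Every treated sample lay below every control. These 8 genes gave 96.8 ± 9.51 of the 2389 CPM summed over the core genes in EV + vehicle, and the summed core level overlapped between the groups.

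The remaining lower core genes were *his-17* and *his-18*, a head-to-head H3 and H4 pair at the edge of another chromosome V block, and *his-35* and *his-11*. *his-18* went from 12.1, 10.7, 8.91 and 11.5 CPM to 7.65, 6.85, 7.84 and 4.33 CPM, without overlap (log2 fold change -0.72, adjusted p = 0.00633 from limma). *his-17* fell by 1.08 with overlapping groups (adjusted p = 0.0237), and stayed called in 11 of 16 fits with a sample removed (up to 0.0896 over all alternatives). *his-35* (V:9544659-9545288) encodes an H2A whose protein differs from that of the other H2A genes and has 2 exons. It fell from 52.5 ± 1.88 to 44.8 ± 3.02 CPM (log2 fold change -0.23, adjusted p = 0.00836), and was not called with each sample centred on its median (0.088). *his-11* (H2B), on chromosome II, rests on 2 to 13 reads. Its fitted log2 fold change was -1.55 (adjusted p = 0.0215), and the call went without EV + vehicle replicate 2 or 3 or EV + P-80 replicate 2 (up to 0.0623).

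The 5 core genes that rose (7.81%, against 6.97% of all genes) lie on other chromosomes. *his-38* (H4; X:7309564-7309875) rose most, from 6.58, 8.36, 7.63 and 7.52 CPM to 11.3, 13.7, 9.97 and 11.5 CPM, with no overlap. Its log2 fold change was 0.62 (SE 0.15, adjusted p = 0.00611 from limma), and the call held under every alternative and every left-out sample. Its head-to-head H3 partner *his-40* had 0.47 without passing (adjusted p = 0.111).

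The other 4 rises were small and less stable. *his-60* (H4, chromosome IV), the second highest histone gene, went from 414 ± 9.44 to 463 ± 25.5 CPM (SD, n = 4), and its log2 fold change was 0.16 (limma, adjusted p = 0.0422). *his-63* (H3, chromosome IV) went from 171 ± 9.40 to 203 ± 18.8 CPM (0.25, adjusted p = 0.0218), and *his-68* (H2A, chromosome I) from 18.3 ± 2.19 to 22.7 ± 2.06 CPM (0.31, adjusted p = 0.0318). In these 3 genes the groups did not overlap. Their adjusted p reached 0.158, 0.0901 and 0.121 over the alternatives, and with 1 sample left out they were called in 6, 13 and 13 of 16 fits. *his-70* (H3.3) had overlapping groups and was called in 5 of 16. Without EV + vehicle replicate 1, EV + vehicle replicate 4 or EV + P-80 replicate 4, only 2 of the 73 histone genes were called higher. Higher calls among all genes fell from 1377 to 893, 831 and 865 in these fits. Without EV + P-80 replicate 4 there were 12 lower histone calls, and without EV + P-80 replicate 3 there were 6 higher and 16 lower. Lower calls among all genes were 1159 and 2151 in these 2 fits, against 1805 with all samples.

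**Figure D3:**
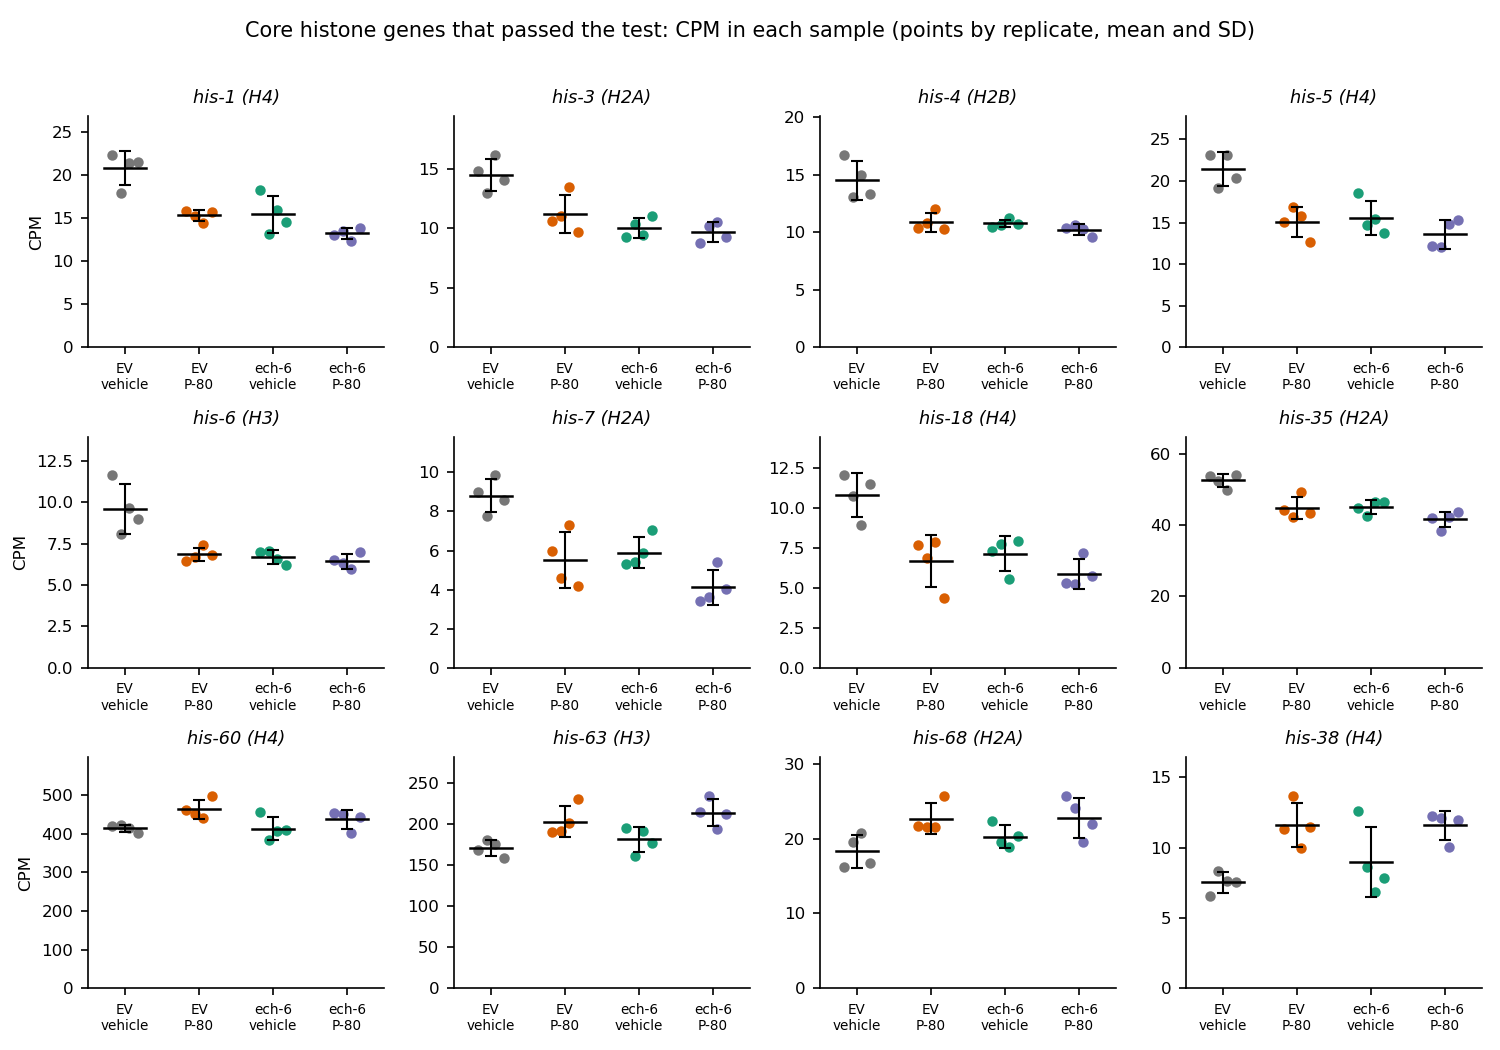
CPM of 12 core histone genes that passed the test for P-80 in EV worms, in each sample, with 1 point per replicate and the mean and SD of 4 samples. The upper 8 genes stand highest in EV + vehicle, and the lower 4 (*his-60*, *his-63*, *his-68*, *his-38*) have higher means in EV + P-80 than in EV + vehicle.

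By chromosome, 9 of 26 core genes on chromosome V were lower with P-80 in EV worms and none was higher. On chromosome IV 2 of 18 were higher and none lower. On chromosome II 1 of 12 was lower, and on chromosomes I, III and X 1 of 2, 1 of 3 and 1 of 3 were higher. Over all genes 9.14% were lower and 6.97% higher, and shares for all genes of each chromosome were not computed. Outside chromosome V these counts rest on 1 or 2 genes each. Among core genes averaging at least 1 CPM, the median log2 fold change was -0.46 for the 16 on chromosome V and 0.15 for the 16 on chromosome IV. The chromosomes differ in the copies they carry and their levels as well as in position, and no test was made of the difference between them.

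Most core genes lie in head-to-head pairs, 28 in all, of which 14 are H2A with H2B and 13 are H3 with H4, with 227 to 368 bp between the starts of their annotated exons. In 18 pairs both genes averaged at least 1 CPM. With P-80 in EV worms both genes of a pair were above 0 in 9 of these 18 pairs, both below 0 in 6, and on opposite sides in 3. In 3 pairs both genes were called lower (*his-3* with *his-4*, *his-5* with *his-6*, *his-17* with *his-18*), and in 0 both were called higher. In 7 pairs only 1 of the 2 genes was called, and in none were the 2 genes called in opposite directions. Such counts for other pairs of genes were not computed. The median absolute difference within these pairs was 0.14 on the log2 scale.

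**Figure D4:**
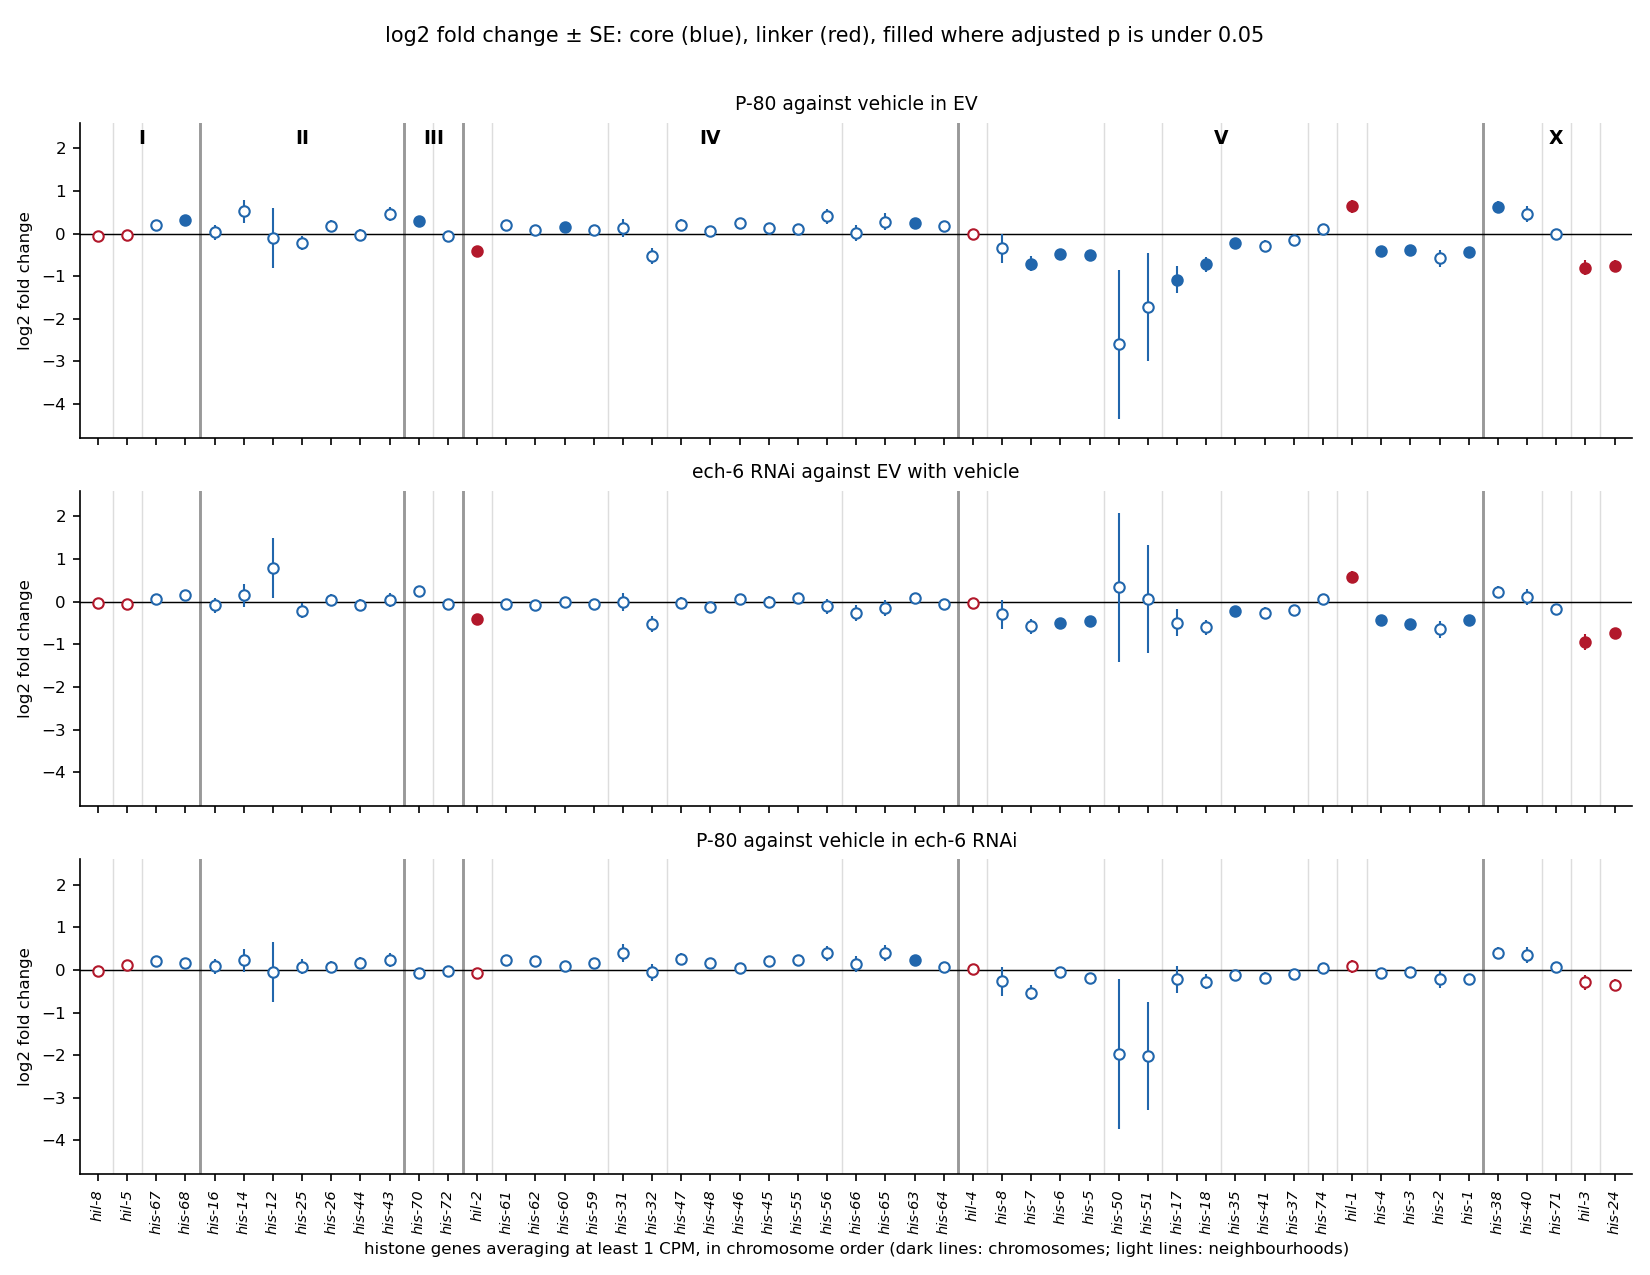
log2 fold change with its standard error for the 53 histone genes averaging at least 1 CPM, in chromosome order, in 3 comparisons, with core genes in blue, linker genes in red and called genes filled. Called core genes on chromosome V lie below 0 for P-80 in EV worms and for *ech-6* RNAi with vehicle, and *his-50* and *his-51* have wide errors.

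With *ech-6* RNAi and vehicle, 3 linker genes and 6 core genes on chromosome V were lower than in EV + vehicle, and the linker gene *hil-1* was higher. Together these were 9 histone genes lower and 1 higher, or 13.7% of 73, against 2.94% of all genes (0.982% lower and 1.95% higher). The median log2 fold change was -0.41 for the linker genes and -0.10 for the core genes, against 1.59e-05 over all genes tested. Over genes averaging at least 1 CPM the linker median was -0.05 and the core median -0.07. With 1 sample left out the core median ran from -0.17 (without EV + vehicle replicate 4 or the library labelled *ech-6* RNAi + vehicle replicate 3) to -0.05 (without *ech-6* RNAi + vehicle replicate 2). Values below 0 were found for 51 of the 73 histone genes, against 50% of all genes. This comparison and the P-80 comparison in EV share the 4 EV + vehicle samples, so a control that happens to be high or low moves both. In 18 of the 73 genes (24.7%) the groups did not overlap, against 13.1% of all genes.

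*his-24* stood at 28.2, 30.2, 37.1 and 28.02 CPM in *ech-6* RNAi + vehicle, all below the 40.5 CPM of the lowest EV + vehicle sample. Its log2 fold change was -0.75 (SE 0.14, adjusted p = 0.0053 from limma). *hil-3* was at 12.3, 11.9, 16.8 and 14.9 CPM, again with no overlap (-0.94, SE 0.18, adjusted p = 0.00724), and *hil-2* at 37.7, 41.1, 47.0 and 43.2 CPM (-0.41, SE 0.08, adjusted p = 0.00933). In *his-24*, *hil-3* and *hil-2* the library labelled *ech-6* RNAi + vehicle replicate 3 was the highest of its group. *hil-2* and *hil-3* were not called without the mean-variance trend of the test (0.0522 and 0.0532), and all 3 kept their calls with any 1 sample left out.

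*hil-1* was the single higher gene, at 4.48, 4.20, 5.07 and 4.24 CPM against 2.61 to 4.03 CPM (log2 fold change 0.58, adjusted p = 0.0388 from limma). It lost its call in 8 of 16 fits with 1 sample left out, among them the fit without any 1 of the 4 *ech-6* RNAi + vehicle samples, and its adjusted p reached 0.154. *hil-4*, *hil-5* and *hil-8* had 95% intervals of -0.14 to 0.07, -0.17 to 0.08 and -0.30 to 0.23.

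The 6 core genes that fell with *ech-6* RNAi were *his-1*, *his-3*, *his-4*, *his-5* and *his-6* of the same chromosome V blocks, and *his-35*. *his-3* (H2A) stood at 14.8, 13.0, 16.2 and 14.0 CPM in EV + vehicle and at 9.28, 10.3, 9.44 and 10.99 CPM in *ech-6* RNAi + vehicle, with no overlap (log2 fold change -0.53, adjusted p = 0.00679 from limma). *his-4* (H2B) was at 10.5, 10.6, 11.2 and 10.7 CPM (-0.43, adjusted p = 0.00891), and *his-6* (H3) at 6.98, 7.09, 6.56 and 6.19 CPM (-0.51, adjusted p = 0.0115). Both lay wholly below EV + vehicle, and *his-6* lost its call without EV + vehicle replicate 1 (up to 0.0571). *his-1* (-0.43, adjusted p = 0.013) overlapped EV + vehicle in 1 sample, *his-5* had -0.46 (adjusted p = 0.0273) and *his-35* -0.22 (adjusted p = 0.0402). Of these, *his-1* kept its call in 12, *his-5* in 10 and *his-35* in 9 of the 16 fits with 1 sample left out.

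Summed over *his-1* to *his-8*, *ech-6* RNAi + vehicle gave 74.4, 65.3, 69.4 and 68.3 CPM, below the 85.4 CPM of the lowest EV + vehicle sample. Without the library labelled *ech-6* RNAi + vehicle replicate 3, 7 histone genes were called lower and 0 higher. Without EV + vehicle replicate 1, 5 were lower and 0 higher. Among all genes these 2 fits called 96 and 42 lower, and 250 and 166 higher. With all samples 194 of all genes were lower and 386 higher. Summed over the 64 core genes, the level was 2306 ± 179 CPM (SD, n = 4) and overlapped EV + vehicle.

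Given to *ech-6* RNAi worms, P-80 raised 1 histone gene (1.37% of 73, against 2.63% of all genes) and lowered 0 (4.58% of all genes), with 7.21% of all genes called in either direction. By limma's test 13 of the 73 genes had an unadjusted p under 0.05, against 19.4% of all genes. *his-63* (H3, chromosome IV) went from 195, 161, 192 and 177 CPM to 215, 235, 194 and 212 CPM, a log2 fold change of 0.24 (SE 0.07, adjusted p = 0.0442). The groups overlapped, since *ech-6* RNAi + P-80 replicate 3 lay just under the highest vehicle sample. The call held in 8 of 16 fits with 1 sample left out, and it was lost without the library labelled *ech-6* RNAi + vehicle replicate 3 (0.171 at most over all alternatives).

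The next core genes by p-value did not pass. They were *his-7* (-0.53, adjusted p = 0.062), *his-38* (0.40, adjusted p = 0.112), *his-61* (0.22, adjusted p = 0.138) and *his-62* (0.21, adjusted p = 0.152, limma). *his-24* stood at 24.2, 20.8, 29.7 and 22.4 CPM in *ech-6* RNAi + P-80, with replicates 3 of both groups the highest, and its log2 fold change was -0.35 (95% interval -0.64 to -0.06, adjusted p = 0.153). The intervals were -0.68 to 0.09 for *hil-3*, -0.24 to 0.10 for *hil-2*, and -0.23 to 0.39 for *hil-1*. Without *ech-6* RNAi + P-80 replicate 3, 2 histone genes were called higher and 2 lower. Among all genes that fit called 570 higher and 1370 lower, against 519 and 905 with all samples. With EV + P-80 replicate 3 or 4 left out, 1 histone gene was higher and 1 lower. Among all genes 571 or 580 were then higher and 1054 or 1125 lower.

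With P-80 in both, *ech-6* RNAi and EV worms had 0 of the 73 histone genes called (0.699% of all genes, 0.476% higher and 0.223% lower), and by limma 5 had an unadjusted p under 0.05, against 10.3% of all genes. The core genes with the smallest p were *his-64* (log2 fold change -0.17, adjusted p = 0.345), *his-7* (-0.41, adjusted p = 0.396), *his-1* (-0.21, adjusted p = 0.425), *his-37* (-0.15, adjusted p = 0.488) and *his-55* (0.21, adjusted p = 0.5). The linker genes *his-24* and *hil-3* had -0.35 and -0.44 (adjusted p = 0.387 and 0.407). The voom fit on recovered reads called 0 histone genes as well.

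The interaction, which is the P-80 effect in *ech-6* RNAi worms minus that in EV worms, called 0 histone genes by limma with the trend and with voom weights, and 0.0% of all genes with the trend. Interaction values lay above 0 for 54 of the 73 histone genes and below 0 for 18, with 53.3% of all genes below 0. Their median was 0.12 for the core genes and 0.15 for the linker genes, against -0.02 over all genes. Unadjusted p-values under 0.05 were seen for 7 of the 73 genes, against 5.91% of all genes. The values of these 7 genes were 0.35 for *hil-2*, 0.34 for *his-4*, 0.42 for *his-6*, 0.33 for *his-3*, -0.38 for *his-70*, -0.56 for *hil-1* and 1.52 for *his-11* on the log2 scale, with adjusted p between 0.742 and 0.810. That P-80 called 20 histone genes in EV worms and 1 in *ech-6* RNAi worms is therefore not shown to be a difference between the worms.

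Of the 5 H3.3 genes 1 was called in 1 comparison. *his-72*, the highest gene of the class, stood at 70.1 ± 1.62 CPM (SD, n = 4) in EV + vehicle and at 67.3 ± 2.88 CPM with P-80. Under *ech-6* RNAi it stood at 67.4 ± 4.62 CPM with vehicle and at 66.2 ± 2.68 CPM with P-80. The 95% interval of its log2 fold change with P-80 in EV worms was -0.17 to 0.05. *his-71* had 24.5 ± 2.02 CPM in EV worms with vehicle and 24.2 ± 2.24 with P-80 (interval -0.18 to 0.14), and 21.6 ± 1.08 in *ech-6* RNAi + vehicle (interval -0.34 to -0.02, adjusted p = 0.217 from limma).

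*his-74* stood between 32.5 and 38.1 CPM in EV + vehicle and between 35.6 and 41.3 CPM with P-80 (interval -0.06 to 0.28). *his-70* was at 14.9, 17.5, 19.7 and 17.7 CPM in EV + vehicle and at 25.2, 18.2, 22.8 and 20.0 CPM in EV + P-80, with replicates of both groups between 18.2 and 19.7. This was the one H3.3 gene called, in P-80 against vehicle in EV worms, where its log2 fold change was 0.30 (limma, adjusted p = 0.0443, up to 0.171 over the alternatives). It was not called with voom weights on the recovered reads. *his-69* had between 0 and 11 reads per sample, and *his-73*, with no class, averaged 0.66 CPM. Neither was called in any comparison.

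6 histone genes of 1 block on chromosome V, *his-49* to *his-54* (V:8847393-8854053), varied widely between replicates. *his-50* (H4) was at 8.79, 4.42, 4.84 and 1.13 CPM in EV + vehicle, and at 2.51, 2.12, 2.39 and 0 CPM with P-80. With *ech-6* RNAi it was at 6.10, 1.12, 13.4 and 5.97 CPM with vehicle, and at 7.36, 2.43, 0 and 10.5 CPM with P-80. With P-80 it thus ran from 0 to 2.51 CPM in EV worms and from 0 to 10.5 CPM in *ech-6* RNAi worms. The fitted log2 fold changes with P-80 in EV worms lay between -3.68 (*his-49*) and -1.72 (*his-51*) with standard errors of 1.203 to 1.75, and none was called. The library labelled *ech-6* RNAi + vehicle replicate 3 was the highest of its group in all 6 genes.

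*his-12* (H2A, chromosome II) had a pattern of single libraries as well. It was at 18.5 CPM (523 reads) in *ech-6* RNAi + vehicle replicate 1 and at 15.7 CPM (274 reads) in *ech-6* RNAi + P-80 replicate 4, and between 1.31 and 2.82 CPM in the other 14 samples. *his-43*, which the later annotation gives the same symbol, stood at 5.57 and 4.76 CPM in those 2 libraries and between 2.88 and 6.10 CPM in the 16 samples. Neither gene was called in any comparison.

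**Figure D5:**
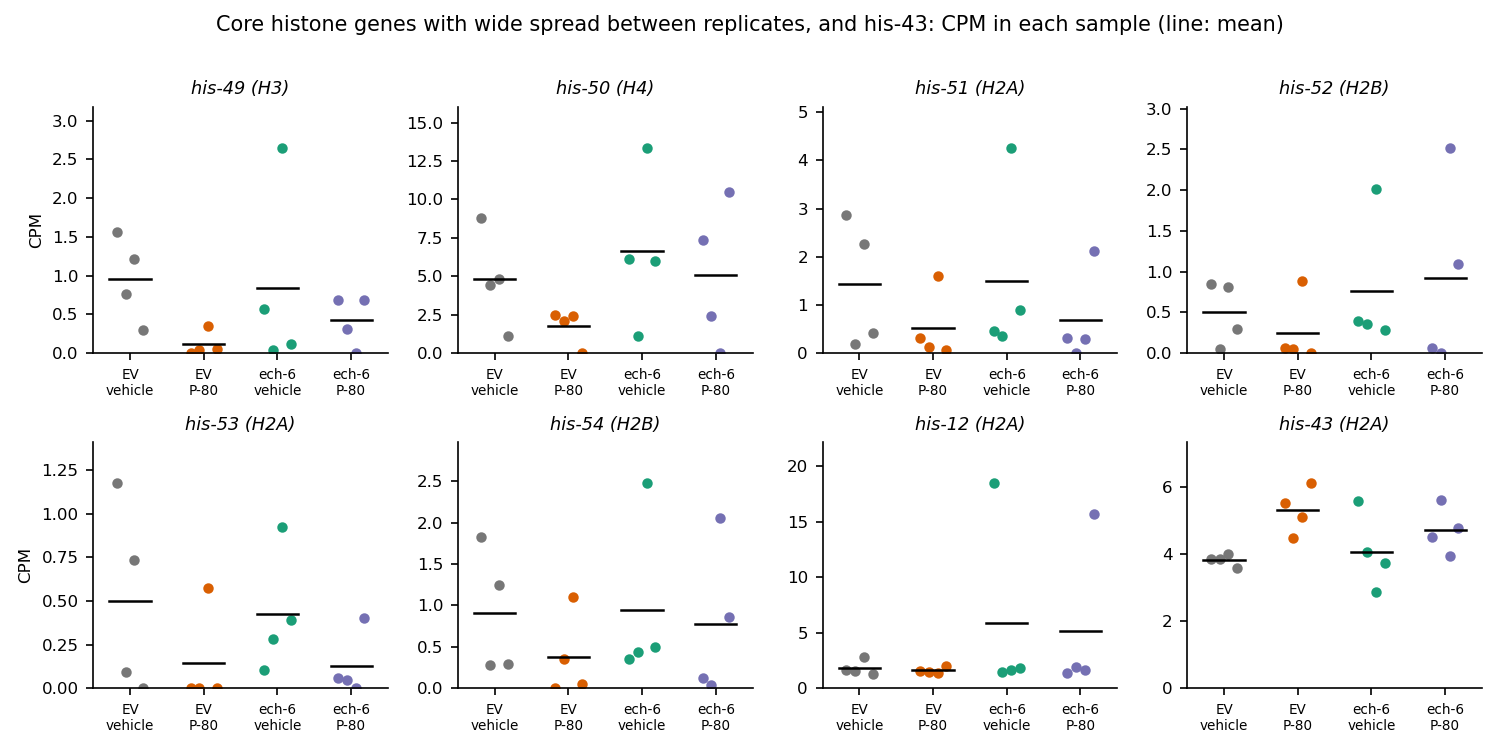
CPM of *his-49* to *his-54*, *his-12* and *his-43* in each sample, with 1 point per replicate and a line at the mean of 4 samples. *his-12* is high in 1 sample of each *ech-6* RNAi group, at 18.5 and 15.7 CPM, and *his-49* to *his-54* spread from 0 or near 0 upward within groups.

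Of 4 histone variants outside the *his-* and *hil-* names, 2 rose with P-80 in EV worms, with 6.97% of all genes called higher. An unadjusted p under 0.05 was found for 3 of these 4 variants and for 8 of 14 genes of histone mRNA processing and histone chaperones, against 28.5% of all genes. The 2 variants called were *hcp-3*, the centromeric H3 (CENP-A), from 41.7 to 49.6 CPM (log2 fold change 0.25, adjusted p = 0.0261 from limma), and *htas-1*, a sperm H2A variant, from 21.2 to 25.4 CPM (0.26, adjusted p = 0.00664). *cpar-1* went from 12.96 to 16.58 CPM without passing. *htz-1*, the H2A.Z gene, had -0.01 (adjusted p = 0.972). Of 14 measured genes for histone mRNA processing and histone chaperones, 1 rose, the chaperone gene *nasp-2* (from 255 to 317 CPM, 0.31, adjusted p = 0.0169). *cdl-1*, whose protein binds the hairpin of replicative histone mRNAs, had 0.17 without passing (adjusted p = 0.0902). In the other 4 comparisons limma called 0 genes of these 2 lists. For *ech-6* RNAi with vehicle 1 gene of the first list and 4 of the second had an unadjusted p under 0.05, among them *htas-1* and *nasp-2* (adjusted p = 0.0705 and 0.0521).

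Of 39 measured DNA replication genes 4 rose with P-80 in EV worms and 0 fell: *evl-18*, *orc-4*, *psf-3* and *pcn-1*, which encodes the replication clamp PCNA. *pcn-1* rose from 90.2 to 106 CPM (log2 fold change 0.23, adjusted p = 0.0136 from limma), and it was the one gene of this list called for *ech-6* RNAi with vehicle (0.26, adjusted p = 0.0263). The list's median log2 fold changes were 0.11 and 0.09, with 6.97% and 1.95% of all genes called higher. By limma 12 of the 39 genes had an unadjusted p under 0.05 with P-80 in EV worms, against 28.5% of all genes. For *ech-6* RNAi with vehicle it was 14 of 39, against 18.5% of all genes.

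Several marker lists had many called genes for P-80 in EV worms, the comparison with the most histone calls. For *ech-6* RNAi with vehicle, and for P-80 under *ech-6* RNAi, list calls and histone calls did not run parallel. The lists were chosen with earlier results of these data known, so their counts beside the shares of all genes are descriptions and not tests. With P-80 in EV worms, all 15 larval cuticle and molting genes were called lower, against 9.14% of all genes. Their summed level was 1097 to 1823 CPM in EV + vehicle and 239 to 731 CPM in EV + P-80. With *ech-6* RNAi and vehicle it was 813 to 912 CPM, below every EV + vehicle sample, and their median log2 fold change was -0.73. By limma 0 of the 15 were called there, and 10 had an unadjusted p under 0.05, against 18.5% of all genes. In *ech-6* RNAi + P-80 the summed level was 294 to 675 CPM. There 13 of 15 were called lower than in *ech-6* RNAi + vehicle, against 4.58% of all genes. EV + vehicle replicate 2, the lowest control for this sum, was also the lowest control for *his-24*, *hil-2*, *hil-3* and the sum of *his-1* to *his-8*. EV + P-80 replicate 3, the highest treated sample for the cuticle and molting sum (731 CPM), was also the highest treated sample for *his-24*, *hil-2*, *hil-3* and the sum of *his-1* to *his-8*. In both *ech-6* RNAi groups the library labelled replicate 3 was highest for the cuticle and molting sum (912 and 675 CPM), *his-24*, *hil-2* and *hil-3*. The sum of *his-1* to *his-8* was highest there in replicate 1 with vehicle and in replicate 3 with P-80. The highest EV + vehicle samples did not match. The cuticle and molting sum was highest in EV + vehicle replicate 4 (1823 CPM). *his-24*, *hil-2*, *hil-3* and the sum of *his-1* to *his-8* were highest in EV + vehicle replicate 1.

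Oocyte and sperm genes were called higher in the same comparison, where 6.97% of all genes were. With P-80 in EV worms 13 of 18 oocyte genes were higher (summed level 2971 to 3639 CPM against 3542 to 4582), and 11 of 21 sperm genes (1228 to 1445 CPM against 1446 to 1714). Of the 18 germline genes 1 was higher, *nos-2*, and the sums overlapped (2018 to 2185 CPM against 2069 to 2286). Of 5 adult intestine and epidermis genes 3 were higher, *vit-2*, *vit-6* and *col-19*. The other genes of this list, *ges-1* and *elt-2*, were not called. Their mean log2 CPM was lower with P-80 (4.754 to 4.582 and 3.541 to 3.445). The summed level of the list (5156 to 7037 CPM against 8761 to 11600) came mostly from the 3 called genes. In EV + vehicle *vit-2*, *vit-6* and *col-19* averaged 1778, 3257 and 1130 CPM. For *ech-6* RNAi with vehicle 0 of 18 oocyte genes were called by limma, but 15 had an unadjusted p under 0.05 (18.5% of all genes), their median log2 fold change was 0.27, and the sums overlapped (3533 to 4412 CPM with *ech-6* RNAi). In that comparison 2 of 21 sperm genes were higher, *gsp-3* and *msp-31*, and 9 had an unadjusted p under 0.05 (1380 to 1547 CPM with *ech-6* RNAi). *col-19* was called higher there as well. Under *ech-6* RNAi, P-80 against vehicle gave higher calls for 8 of 21 sperm genes and 2 of 18 oocyte genes (*perm-2* and *perm-4*). *vit-2* and *vit-6* were also called higher. This compares with 2.63% of all genes and 1 of 73 histone genes. The part of these lists in the histone values was not tested.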

How the data were processed

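RNA of whole worms was sequenced in 16 samples, 4 per group. The authors trimmed reads with Trimmomatic 0.32, mapped them by HISAT2 2.0.4 on the WBcel235 assembly (Ensembl release 91) and counted them per gene by HTSeq 0.6.1, which drops reads with several places. Genes had to exceed 2 counts in 4 or more samples, and TMM scaling was used. The deposited values are log2 CPM with a small constant added by the authors, although the column names say CPM. The CPM given here are these values with the log undone and the constant subtracted. Whole read counts were recovered for 100% of values (tolerance 0.05 of a read), with 15306307 to 28129104 reads per sample. The smallest step, 1 read, was worth 0.0353 to 0.0651 CPM.

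The log2 values of all 19750 genes were fitted with limma 3.58.1 in R 4.3.3 (lmFit, eBayes with trend, a mean for every group, 16 samples). There were 5 two-sided comparisons, with Benjamini-Hochberg adjustment across all genes and a threshold of 0.05. Log2 fold changes had a median standard error of 0.14. The fit was checked on simulated data. The level of *ech-6* was compared by exact permutation tests. Positions and exon lengths come from Ensembl release 115 of the same assembly, and genes within 20000 bp were treated as neighbours.

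Named are all linker and H3.3 genes, in each comparison up to 15 called core genes in each direction, the 5 core genes with the smallest p where fewer than 5 were called, the highest core gene of each class, and called genes of the lists. *his-2*, *his-8*, *his-40*, *his-48*, *his-12*, *his-43* and *his-49* to *his-54* were named after their values were seen, as were the chromosome V blocks. The members and lists were chosen with earlier results of these data known. Alternatives tried were limma without its trend, voom weights on the recovered reads, keeping genes averaging at least 1 CPM, centring on sample medians, quantile normalization, a fit of the compared groups alone, a fit with replicate numbers as a block, and the removal of any 1 sample. Python 3.11.15, pandas 2.3.3, scipy 1.17.1 made the tables, and matplotlib 3.10.9 drew the figures. Sequences were not used here.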

Additional observations from a re-analysis of the deposited data

Results flagged for a closer look

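In 17 of the 292 sets of 4 replicates (73 genes in 4 groups) 1 sample stood apart from the other 3 by Dixon's criterion at the 95% level. Chance gives about 1 in 20 sets, close to the share seen. The values below are on the log2 CPM scale.

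In the linker histones there was 1 such sample, EV + P-80 replicate 3 for *his-24* (5.34, the other 3 from 4.77 to 4.82). *ech-6* RNAi + P-80 replicate 3 was the lowest sample of its group for *his-72* (5.96), *his-61* (6.90), *his-60* (8.65) and *his-38* (3.33), 4 of the well-measured genes. *his-12* was high in *ech-6* RNAi + vehicle replicate 1 (4.21, the others from 0.58 to 0.85) and in *ech-6* RNAi + P-80 replicate 4 (3.97, the others from 0.52 to 0.96). *ech-6* RNAi + vehicle replicate 2 was low for *his-44* (1.87) and *his-48* (6.52).

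EV + P-80 replicate 4 was high for *his-68* (4.69) and had 0 reads of *his-50* (-6.33). The library labelled *ech-6* RNAi + vehicle replicate 3 was high for *his-52* (1.02, 35 reads) and low for *his-28* (-2.97, 2 reads). EV + P-80 replicate 3 was the one sample of its group with reads of *his-53* (-0.77, 13 reads). The others were EV + P-80 replicate 1 for *his-73* (-0.99, 8 reads), EV + vehicle replicate 2 for *his-21* (-2.69, 3 reads) and EV + vehicle replicate 1 for *his-41* (4.19).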

How the results depend on the processing

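No histone gene called in any comparison changed direction under any alternative. For P-80 in EV worms the 6 higher calls became 2 without the mean-variance trend and 10 with centring, and 2 to 8 with 1 sample left out, while lower calls were 12 to 16. Calls among all genes moved too. The 1377 higher became 1013 without the trend, 2361 with centring and 831 to 1578 with 1 sample left out. The 1805 lower became 1152 to 2151 with 1 sample left out. In *ech-6* RNAi worms the 1 higher call for P-80 became 0 without the trend, and 0 to 2 with 1 sample left out, with 0 to 2 lower. For *ech-6* RNAi with vehicle, 9 lower calls became 5 without the trend and 5 to 12 with 1 sample left out, and the 1 higher call became 0 without the trend, with voom weights or with some samples left out. The 194 lower calls among all genes became 51 without the trend and 42 to 353 with 1 sample left out. For *ech-6* RNAi with P-80 and for the interaction all counts stayed at 0. The fall of *ech-6* with P-80 was -1.67 to -1.53 with 1 sample left out (exact permutation test p = 0.0571, the smallest that 3 against 4 allows).

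Most same-numbered samples of different groups did not deviate together: 24 such correlations ran from -0.25 to 0.50, and 6 were over 0.1. A sample correlated best with its own number in 11 of 48 cases. Replicates 3 of EV + P-80 and *ech-6* RNAi + P-80 were the exception at 0.50, and the next highest correlation was 0.18. With the replicate block there were 5 higher and 14 lower histone calls for P-80 in EV worms, 0 and 2 in *ech-6* RNAi worms, and 0 and 10 for *ech-6* RNAi with vehicle. Among all genes the block gave 1357 and 1814, 531 and 930, and 333 and 215. Depth limits the 20 histone genes under 1 CPM, and reads that fit several copies were not counted.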
